A study of Mus musculus with 8 samples.

Results

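The genes described here are 8 transcripts by which the choroid plexus and the ciliated lining of the brain ventricles are usually recognised, followed in microvessel preparations from mouse forebrain. They are Ttr, Kl, Folr1, Aqp1, Clic6, Otx2, Foxj1 and Enpp2, taken by name, with every array probe whose accession maps to 1 of them, and they are 8 of the 21941 genes tested. The arrays held 9 probes for them, 2 for Folr1 and 1 for each of the others. All 9 probes were well above background in all 16 channels, none was saturated and no spot was left out, so all 8 genes passed the filter on dim probes.

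The preparation was made from whole forebrain of mice at day 5 after birth (P5), at day 10 (P10) and in adulthood, and it kept particles under 70 µm. The labels name no genotype, strain, sex or treatment, no adult age in days, and do not say whether a replicate is 1 animal or a pool, so the p-values below reflect how far these samples differ from each other, and that difference may be technical. The 8 two-colour arrays each compared RNA of a pair of ages. Each of 2 replicates filled 1 slide of 4 arrays, which paired P5 with adult, P10 with adult, P10 with adult with the dyes exchanged, and P5 with P10. P5 RNA was labelled with Cy5 throughout. Ratios are given as log2 of the younger over the older age, and "called" means an adjusted p below 0.05 in limma with Benjamini-Hochberg adjustment over all genes tested, with n = 2 replicates per age. Per channel, 65.2% to 73.3% of spots were well above background, and the number of arrays limits the precision. All 16 endothelial markers listed were well above background at every age. Such signal does not measure how much of the RNA came from vessels. The summed intensity of these markers, given below, was lower at P5 than in adults.

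The choroid plexus is a fringe of epithelium that hangs in each ventricle over a core of leaky, fenestrated vessels. Its cells secrete the cerebrospinal fluid, carry hormones and vitamins from blood to fluid, and are joined by tight junctions, since the vessels beneath them form no barrier. Ependymal cells line the ventricle wall, and their motile cilia move the fluid. Neither cell type is part of the parenchymal microvessels that give the preparation its name. In bulk RNA, fewer cells of a type and less RNA per cell cannot be told apart.

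At P5, 5 of the 8 genes were higher than in adults (Otx2, Aqp1, Ttr, Folr1 and Foxj1), 1 was lower (Kl), and Clic6 and Enpp2 did not pass the test. Over all genes tested, 30.1% were higher and 23% lower at P5, so the list had a larger share of higher genes than the array as a whole. The list was chosen with earlier results of these data known, so that larger share is a description and not independent support. The median log2 ratio of the 8 genes was 1.03, against 0.09 for all genes. At P10, 3 of the 8 were higher than in adults (Otx2, Aqp1 and Folr1) and 1 was lower (Kl), with 8.42% of all genes higher and 9.1% lower. The median was 0.59, against 0.01 for all genes. Between P5 and P10 only Foxj1 was called, higher at P5, where 23% of all genes were higher and 18.2% lower. These shares over all genes are the background for the counts of every list below. The 2 comparisons with adults use the same adult samples, so they are not independent of each other. With each array centred on its median in place of the loess fit, the counts at P5 against adult became 2 higher (Aqp1 and Otx2) and 2 lower (Kl and Enpp2). At P10 against adult, Aqp1 and Otx2 alone were called under that centring, and also without the P10/adult array of replicate 1.

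**Figure D1:**
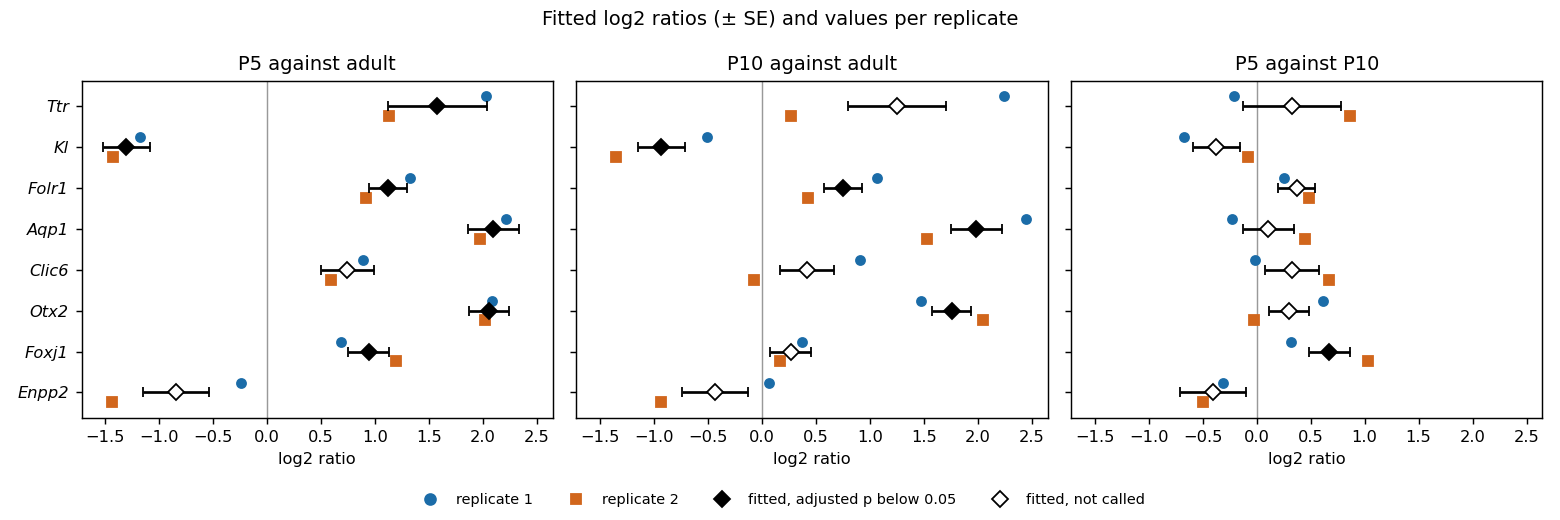
Fitted log2 ratio with its standard error for the 8 genes in the 3 comparisons (diamonds, filled where called in limma), with the value of each replicate beside it. Otx2, Aqp1, Ttr, Folr1 and Foxj1 lie to the right of 0 and Kl to the left at P5 against adult, and the replicates stand farther apart at P10 than at P5 against adult in 6 of 8 genes, Foxj1 and Enpp2 being the exceptions.

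Ttr encodes transthyretin, the carrier of thyroxine and of retinol-binding protein that choroid plexus epithelium secretes into the cerebrospinal fluid. On the P5/adult arrays its log2 ratio was 2.83 in replicate 1 and 1.66 in replicate 2. On the P10/adult arrays it was 3.42 and 0.68, with the dyes exchanged it was 1.31 and -0.22, and on the P5/P10 arrays it was 1.10 and 1.24. The younger sample was therefore brighter on 7 of 8 arrays, but the arrays of the same P10 and adult samples disagreed with each other.

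The gap between the 2 dye orders of Ttr was 2.11 in replicate 1 and 0.90 in replicate 2, whereas the median gap over all genes was 0.16 and 0.13 and the 95th percentile 0.54 and 0.42. In replicate 1 the spot's median signal in the adult channel was 4632.5 on the P10/adult array and 20651 on the P5/adult array, both in Cy3. The cause of this difference was not tested. Among the other 7 genes no gap exceeded 0.32 at the brighter probe. After the dye term was fitted, Ttr was higher at P5 than in adults by 1.58 ± 0.46 (SE, n = 2 replicates at 2.03 and 1.13; adjusted p = 0.0376), a 2.99-fold difference. At P10 the ratio was 1.25 ± 0.46, with replicates at 2.24 and 0.27, and did not pass (adjusted p = 0.136). The P5 call of Ttr was lost under 5 of 14 alternative settings, with adjusted p up to 0.121, among them Feature Extraction's own processed signals, the inclusion of dim probes and median centring.

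The log2 intensity of Ttr was 17.74 and 17.13 in the 2 replicates at P5, 16.99 and 16.17 at P10, and 14.90 and 15.93 in adults. The replicate values were ordered P5, P10, adult on both slides, and no age overlapped the next. These levels are single-channel values with no dye term, so for Ttr they also hold the dye difference, and P5 is Cy5 alone. With the dye term fitted, the order of P5 and P10 did not hold on both slides. P5 was then below P10 in replicate 1 (-0.21) and above it in replicate 2 (0.86). The adult channels of replicate 1 spread from 13.59 to 16.11.

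**Figure D2:**
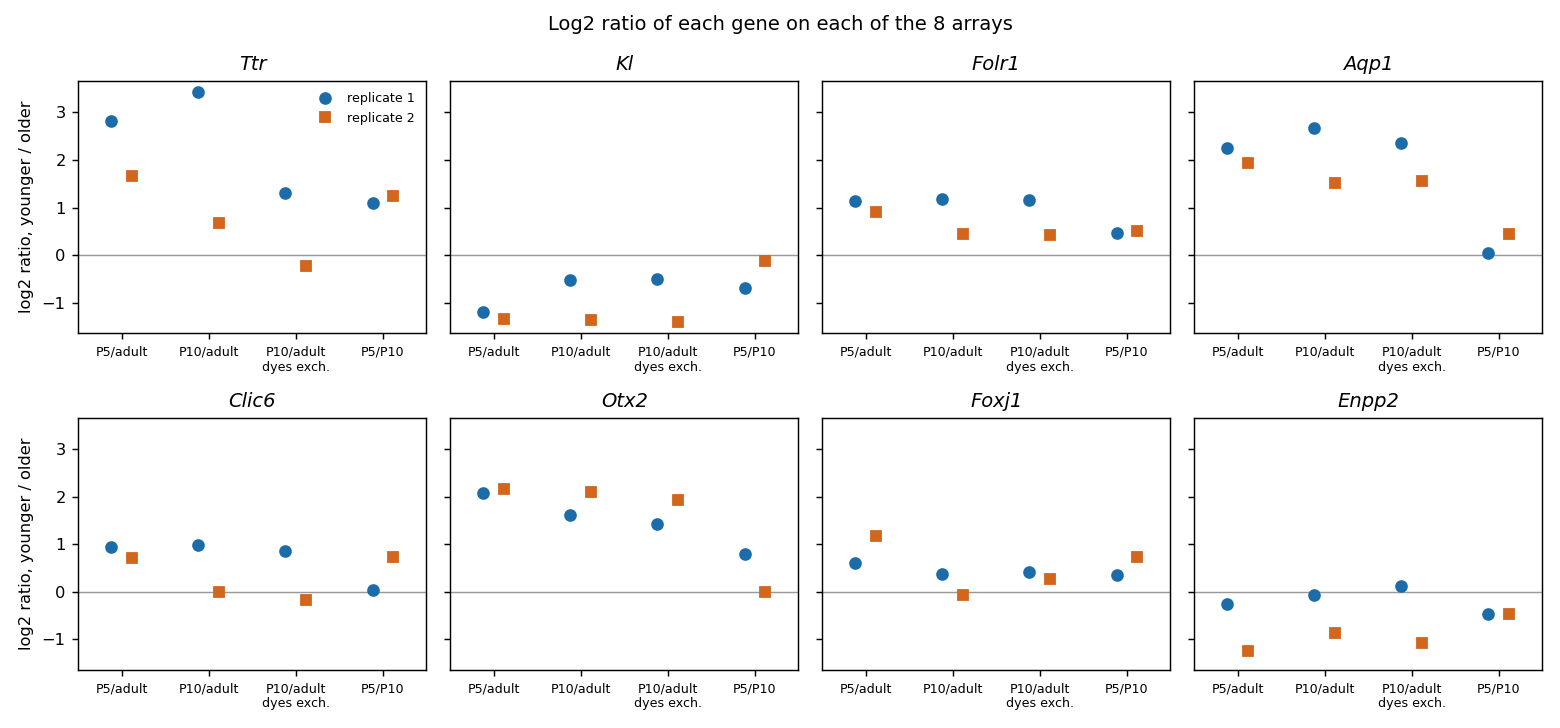
Log2 ratio of the younger over the older age on each of the 8 arrays, by pairing (x axis) and replicate (circles 1, squares 2), for the brighter probe of each gene. Ttr falls from 3.42 to 1.31 in replicate 1 when the dyes of P10 and adult are exchanged, whereas the other 7 genes move by at most 0.32.

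Enpp2 encodes autotaxin, a secreted lysophospholipase D that makes lysophosphatidic acid and is abundant in choroid plexus, and also in oligodendrocytes. Its P5/adult ratio was -0.26 in replicate 1 and -1.25 in replicate 2. The P10/adult ratios were -0.06 and -0.87, those with exchanged dyes 0.12 and -1.08, and those of P5/P10 -0.47 and -0.48. Replicate 2 was lower at both young ages, whereas replicate 1 was near 0 at P10. The fitted ratio was -0.84 ± 0.30 at P5 (adjusted p = 0.0707) and -0.43 ± 0.30 at P10 (adjusted p = 0.415), so Enpp2 was not called. The 95% interval at P5, -1.63 to -0.05 before adjustment, includes a large decrease and nearly none. Its levels were 14.44 and 14.19 at P5, 15.03 and 14.60 at P10, and 14.95 and 15.53 in adults, where P5 was lowest in both replicates and P10 and adult overlapped.

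A list of 14 other genes held receptors and phosphatases of lysophosphatidic acid, and relatives of autotaxin that need not act on it. Of these 14, 7 were lower at P5 than in adults and 1 was higher. Enpp4, a relative of autotaxin, had the lowest ratio (-2.38), followed by the receptor gene Lpar6 (-1.61), the phosphatase gene Plpp3 (-0.72) and Enpp1 (-0.50). At P10, 4 were lower and 3 higher, among them the phosphatase gene Plpp1 (0.91) and the receptor gene Lpar4 (0.78). Under median centring the counts were 1 higher and 4 lower at P5 and 0 higher and 1 lower at P10, and without the P10/adult array of replicate 1 they were 1 higher and 0 lower at P10.

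Kl encodes α-klotho, the membrane partner that lets FGF receptors bind FGF23, which choroid plexus epithelium makes and also sheds. It was the 1 gene of the 8 called lower at the young ages. Its P5/adult ratio was -1.19 in replicate 1 and -1.34 in replicate 2, its P10/adult ratio -0.53 and -1.37, and that with exchanged dyes -0.49 and -1.40. On the P5/P10 arrays it was -0.69 and -0.13. The adult sample was brighter on every array that held it. The fit gave -1.30 ± 0.22 at P5 (adjusted p = 0.00803) and -0.93 ± 0.22 at P10 (adjusted p = 0.0477). The P5 call held under all 14 alternatives run, between -1.70 and -1.15. The P10 call was lost under 6 of them, with adjusted p up to 0.165, including the analysis without the P10/adult array of replicate 1. The levels of Kl were 8.48 and 8.69 at P5, 9.17 and 8.78 at P10, and 9.66 and 10.14 in adults, with no overlap between ages. Their order was the reverse of that of Ttr's single-channel levels.

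Genes that work with klotho were counted from a list. Of 13 genes for klotho's relatives, FGF receptors, ligands and sheddases, 7 passed the filter on dim probes, and 6 of these were higher at P5 than in adults and 1 lower. Fgfr4 was higher (1.97, but 0.19 at its other probe), as were Fgf23, the ligand (1.60), and Fgfr1 (0.81, with probes from -0.01 to 1.18). The 1 lower gene was Adam17, a protease that can shed klotho (-1.10). At P10, Fgfr4 alone was called (1.70, and 0.43 at its other probe). The P5 count depended on the processing, with 2 higher and 1 lower under median centring (median 0.12, against 0.64) and 3 higher and 1 lower of 6 tested without the P10/adult array of replicate 1.

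Folr1 encodes the folate receptor α, which takes folate across the choroid plexus epithelium into the fluid. At its brighter probe the P5/adult ratio was 1.13 in replicate 1 and 0.91 in replicate 2, the P10/adult ratio 1.18 and 0.45, that with exchanged dyes 1.17 and 0.43, and the P5/P10 ratio 0.47 and 0.51. The younger sample was brighter on all 8 arrays, and the dye orders gave nearly the same value. The fit gave 1.12 ± 0.17 at P5 (adjusted p = 0.00662), a 2.18-fold difference, and 0.75 ± 0.17 at P10 (adjusted p = 0.0468). The dimmer probe had 0.78 ± 0.29 at P5 (adjusted p = 0.0710 over all probes) and 0.69 ± 0.29 at P10 (adjusted p = 0.176), in the same direction but not called. Its replicates at P10 were 1.30 and 0.08. The P10 call at the brighter probe was lost under 7 of 14 alternatives, with adjusted p up to 0.206, among them the mean over both probes and the analysis without the P10/adult array of replicate 1, while the P5 call was lost under median centring (0.47, adjusted p = 0.207). Levels at the brighter probe were 13.20 and 12.91 at P5, 13.13 and 12.41 at P10, and 11.95 and 11.95 in adults, so P5 and P10 overlapped and both lay above the adults.

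Among 14 other genes of folate uptake and one-carbon metabolism, 7 were higher at P5 than in adults and 1 lower. The higher ones included Aldh1l1, a folate enzyme that also marks astrocytes (1.44), Fpgs, which adds the glutamates that hold folate in cells (1.06), and the mitochondrial enzyme gene Mthfd2 (0.86). Slc19a1, the reduced folate carrier, was the lower one (-0.85). At P10, 3 were higher, among them Mthfd1l (1.31) and Shmt2 (0.70), and none was lower. Median centring gave 4 higher and 2 lower at P5, and 1 higher and 0 lower at P10.

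Aqp1 encodes the water channel of the choroid plexus apical membrane. Its P5/adult ratio was 2.25 in replicate 1 and 1.93 in replicate 2. Its P10/adult ratio was 2.67 and 1.51, that with exchanged dyes 2.35 and 1.57, and the P5/P10 ratio 0.05 and 0.45. Every array that held adult RNA showed a difference of at least 1.51, and P5 and P10 stood close together. The fit gave 2.10 ± 0.24 at P5 (adjusted p = 0.00291), a 4.28-fold difference, and 1.99 ± 0.24 at P10 (adjusted p = 0.00948), a 3.97-fold difference, and both calls held under all 14 alternatives. The P5 to P10 difference was 0.11, with a 95% interval of -0.50 to 0.72. The levels were 12.10 and 11.76 at P5, 12.38 and 11.48 at P10, and 9.86 and 9.83 in adults, with P5 inside the range of P10.

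Aquaporins as a family did not move this way. Of 9 others listed, 4 passed the filter, and at P5 none was higher and 1, Aqp11, was lower (-1.87). Aqp4, the water channel of astrocyte endfeet, was at -0.11 at P5 (adjusted p = 0.407) and higher at P10 (0.53, adjusted p = 0.0294), while Aqp11 was lower at P10 (-0.52). Both P10 calls were lost under median centring and without the P10/adult array of replicate 1, and median centring gave 1 higher and 2 lower at P5.

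Clic6 encodes a chloride intracellular channel protein and is a common marker of choroid plexus epithelium. Its P5/adult ratio was 0.95 in replicate 1 and 0.70 in replicate 2, its P10/adult ratio 0.98 and -0.00, that with exchanged dyes 0.86 and -0.17, and the P5/P10 ratio 0.05 and 0.74. P10 was as high as P5 in replicate 1 and as low as adult in replicate 2. The fitted ratio was 0.75 ± 0.25 at P5 (adjusted p = 0.0558) and 0.42 ± 0.25 at P10 (adjusted p = 0.330), neither called. The P5 value passed under 3 alternatives, no dye term, the arrays that pair the 2 ages directly and no replicate block. Levels were 11.75 and 11.66 at P5, 11.85 and 11.00 at P10, and 10.82 and 11.07 in adults. The P10 values reached into the ranges of both other ages, which did not overlap each other. Of its 4 relatives, 3 were lower at P5 than in adults: Clic5 (-3.75), Clic4 (-2.56, and -1.14 at its other probe) and Clic1 (-0.55). Clic5 and Clic4 were also lower at P10 (-2.79 and -1.10), and none was higher at either age. Clic3, named after its values were seen, was at 0.17 at P5 and 0.30 at P10 and was not called.

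Otx2 encodes a homeodomain transcription factor that directs formation of the choroid plexus and is kept in its epithelium afterwards. Its P5/adult ratio was 2.08 in replicate 1 and 2.16 in replicate 2. The P10/adult ratio was 1.61 and 2.09, that with exchanged dyes 1.43 and 1.94, and the P5/P10 ratio 0.80 and -0.00. At P5 the replicates were nearly equal, and at P10 replicate 2 was the higher, unlike the other 7 genes. The fit gave 2.06 ± 0.18 at P5 (adjusted p = 0.00169), a 4.16-fold difference, and 1.76 ± 0.18 at P10 (adjusted p = 0.00710), 3.38-fold. The P5 call held under all 14 alternatives, and the P10 call under 13, the exception being normexp fitted with the spots of faulty background (adjusted p = 0.0754). Levels were 11.32 and 11.59 at P5, 10.62 and 11.55 at P10, and 9.17 and 9.50 in adults, so that P10 was below P5 in replicate 1 and beside it in replicate 2, and both young ages lay above the adults.

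Of 10 other measured anterior patterning and dorsal midline genes, 6 were higher at P5 than in adults and none lower. They included the dorsal signals Bmp4 (0.93) and Bmp7 (0.65), and the homeodomain gene Lhx2 (0.58). At P10 Bmp7 alone was called (0.80). Without the P10/adult array of replicate 1 the counts were 3 higher at P5 and 0 at P10, and under median centring Bmp7 was not called at P10.

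The start regions of Kl, Aqp1 and Otx2 are shown. Folr1, Clic6, Foxj1 and Enpp2 had no window available, and Ttr is not shown. Aqp1 and Otx2 had the 2 highest P5/adult ratios of the 8 genes and Kl the lowest. The regions are RefSeq windows of 300 bases, 250 before and 50 after the start, on GRCm38.p6. Capitals mark any match to 3 short motifs, each searched on both strands: TAATCC, the core bound by OTX-type homeodomains, TGTTTA, a forkhead core, and GTTGCC, part of the site of RFX factors. No motif overlaps another in these windows. Otx2 has 4 windows in the table. The 2 printed hold its TAATCC match and both of its GTTGCC matches.
Aqp1, chr6:55336049-55336348, plus strand: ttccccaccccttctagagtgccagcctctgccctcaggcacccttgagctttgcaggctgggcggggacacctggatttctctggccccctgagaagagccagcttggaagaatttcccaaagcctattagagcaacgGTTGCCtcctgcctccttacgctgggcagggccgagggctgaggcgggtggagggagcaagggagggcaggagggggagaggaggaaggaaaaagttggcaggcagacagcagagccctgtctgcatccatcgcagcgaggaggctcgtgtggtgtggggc
Otx2, chr14:48667459-48667758, minus strand: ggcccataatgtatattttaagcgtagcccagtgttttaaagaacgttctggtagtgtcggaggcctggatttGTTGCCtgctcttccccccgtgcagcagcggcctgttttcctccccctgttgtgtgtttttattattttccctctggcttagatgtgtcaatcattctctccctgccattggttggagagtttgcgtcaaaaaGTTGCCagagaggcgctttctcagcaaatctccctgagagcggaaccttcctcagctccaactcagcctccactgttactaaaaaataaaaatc
Otx2, chr14:48665060-48665359, minus strand: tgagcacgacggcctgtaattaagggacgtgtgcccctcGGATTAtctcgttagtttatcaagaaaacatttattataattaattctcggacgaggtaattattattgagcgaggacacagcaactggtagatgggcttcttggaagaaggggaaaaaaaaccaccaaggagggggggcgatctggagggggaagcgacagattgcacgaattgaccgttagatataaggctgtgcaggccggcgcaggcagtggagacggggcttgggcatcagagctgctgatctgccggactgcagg
Kl, chr5:150952357-150952656, plus strand: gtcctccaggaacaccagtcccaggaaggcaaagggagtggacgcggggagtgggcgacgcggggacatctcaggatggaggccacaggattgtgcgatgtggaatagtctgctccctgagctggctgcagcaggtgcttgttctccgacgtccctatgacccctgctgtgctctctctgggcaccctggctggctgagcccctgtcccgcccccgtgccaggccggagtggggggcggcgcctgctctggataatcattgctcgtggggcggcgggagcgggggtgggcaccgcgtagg
The Aqp1 window held GTTGCC once, beginning at -111 from the start, and the first Otx2 window held it at -177 and -44. The second Otx2 window held GGATTA, which is TAATCC on the other strand, at -211. The Kl window, with 67.3% G and C, held none of the 3. Among all 32851 windows of this length in the table, 7.06% held TAATCC, 13.4% TGTTTA and 12.5% GTTGCC on either strand. A match describes these letters alone, and nothing follows from it, or from its absence, about binding.

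Foxj1 encodes the forkhead transcription factor that switches on the motile cilia programme, and within the 8 genes it stands for ependyma as well as choroid plexus. Its P5/adult ratio was 0.60 in replicate 1 and 1.18 in replicate 2. The P10/adult ratio was 0.38 and -0.06, that with exchanged dyes 0.42 and 0.26, and the P5/P10 ratio 0.36 and 0.73. P5 was above the other ages on every array that held it. In replicate 2 P10 stood close to adult, and in replicate 1 it lay between them. The fit gave 0.94 ± 0.19 at P5 against adult (adjusted p = 0.0139), a 1.92-fold difference, 0.27 ± 0.19 at P10 against adult (adjusted p = 0.421), and 0.67 ± 0.19 at P5 against P10 (adjusted p = 0.0442). The P5 against adult call was lost under 2 of 14 alternatives, with adjusted p up to 0.0917, and the P5 against P10 call under 6, with adjusted p up to 0.320, including the arrays that pair P5 and P10 directly. Levels were 9.10 and 9.19 at P5, 9.12 and 8.44 at P10, and 8.53 and 8.20 in adults, with P10 overlapping both other ages.

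**Figure D3:**
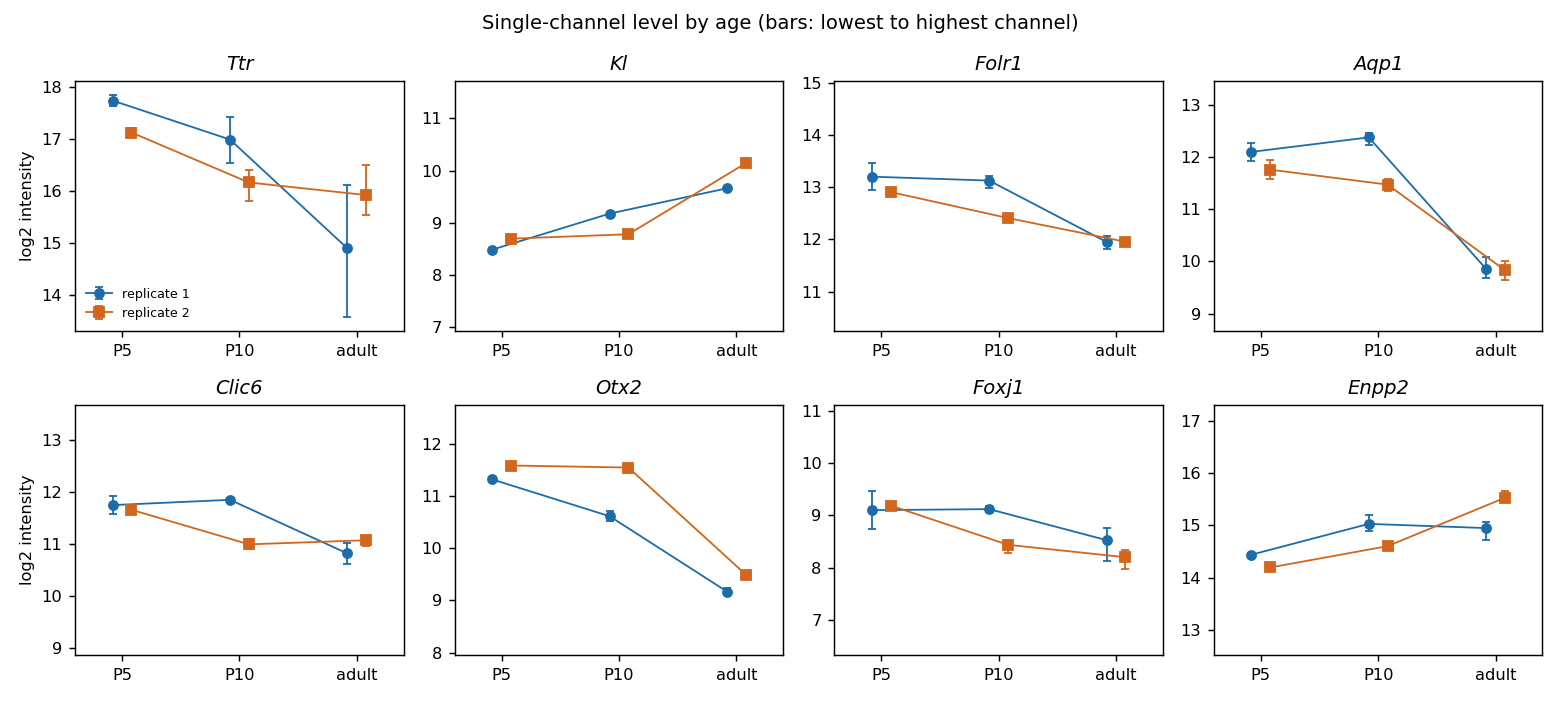
Mean log2 single-channel intensity at each age (x axis) for each gene and replicate (circles 1, squares 2), with bars from the lowest to the highest channel; panels span equal ranges, and heights of different genes are not comparable. Ttr, Folr1, Aqp1 and Otx2 are lowest in adults, where Kl is highest, and the adult bar of Ttr in replicate 1 reaches from 13.59 to 16.11.

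Most other motile cilia and ependyma genes were higher at P5 than in adults. Fewer were higher at P10, as was so over all genes. Of 37 tested, 24 were higher at P5 and 1 was lower, with 30.1% of all genes higher and 23% lower. Their median was 0.72, against 0.09 for all genes. At P10, 5 were higher than in adults and 1 lower (median 0.10), with 8.42% of all genes higher and 9.1% lower. Between P5 and P10, 17 were higher at P5 and 1 lower (median 0.51), with 23% of all genes higher and 18.2% lower. The highest at P5 were Cd24a (3.33), which immature neurons also express, Mia (1.73), the multiciliation gene Myb (1.64) and Mcidas, a starter of the multiciliated fate (1.62). Axonemal genes were among them, with Tekt1, a tektin of the ciliary microtubules, at 0.99 and Drc1, of the dynein regulatory complex, at 1.17, both named after their values were seen. Rarres2, which encodes the chemoattractant chemerin, was the lower gene (-1.13). At P10 Mia (1.38), Cd24a (1.37), Gmnc (1.26), a further regulator of multiciliation, and Tekt1 (0.56) were higher, and Rarres2 (-0.43) was lower. The P10 counts became 1 higher and 0 lower under median centring, and 2 higher and 0 lower without the P10/adult array of replicate 1. Mcidas was at -0.17 at P10 (adjusted p = 0.826) and higher at P5 than at P10 by 1.79 (adjusted p = 0.0223), with replicates at 2.61 and 0.97. Against adult its replicates were 2.02 and 1.21 at P5, and -0.59 and 0.24 at P10. The erythroid marker Hemgn, named after its values were seen, had nearly the same values, 2.13 and 1.35, and -0.60 and 0.32. So did Fgf23, with 1.95 and 1.25, and -0.53 and 0.22.

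The other choroid plexus genes had calls in both directions, as the 8 genes did. Of 36 tested, 20 were higher at P5 than in adults, 7 were lower and 9 did not pass, with a median of 0.51. In both lists the share of higher calls at P5 was above the array-wide 30.1%, and that of lower calls below the array-wide 23%. At P10, 11 of the 36 were higher and 4 lower, with a median of 0.63. Higher at P5 were Trpm3, a cation channel gene that hosts a microRNA (1.79), Htr2c, the serotonin receptor of this epithelium (1.33, but 0.02 at another probe), Ecrg4, a secreted peptide precursor (1.27), and Kcne2, a potassium channel subunit (1.23). Lower at P5 were the prolactin receptor gene Prlr (-4.01, and -1.72 at its other probe), the copper oxidase gene Cp (-2.00), coagulation factor gene F5 (-1.63) and the thyroxine transporter gene Slco1c1 (-1.47). Slco1c1 is made by brain endothelium as well. The same 4 genes were lower at P10 (-2.87, -1.05, -1.02 and -0.67), where Trpm3 (1.64), Htr2c (1.21) and Sostdc1, a secreted BMP and WNT modulator (1.11), were among the higher genes.

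Between P5 and P10 the calls of both lists ran in opposite directions, a difference that was not itself tested. None of the 36 choroid plexus genes was higher at P5 than at P10 in limma and 9 were lower. In the cilia list, 17 of 37 were higher and 1 was lower. The 9 lower choroid plexus genes included Prlr (-1.13, but -0.12 at its other probe), Cp (-0.95) and Cgnl1 (-0.95). Cgnl1 was named after its values were seen. The marker lists of other cells, described below, split between these ages too. Endothelial markers were lower at P5 than at P10 in 16 of 16, mural markers in 10 of 11 and fibroblast markers in 9 of 15. Immature neuron markers were higher at P5 in 12 of 13 and erythroid markers in 11 of 13. Over all genes, 23% were higher and 18.2% lower, so the lower share of the choroid plexus list was near the background. Its 9 lower genes became 15 under median centring and 5 without the P10/adult array of replicate 1 (median -0.05). Among the 8 genes, the 1 called between these ages was Foxj1, the cilia regulator. The counts of the choroid plexus list depended on the scaling: with median centring in place of loess, 6 were higher and 8 lower at P5 against adult, and the median was 0.25. At P10 against adult, 4 were higher and 3 lower under that centring, and 2 were higher and 2 lower without the P10/adult array of replicate 1. In the cilia list, median centring gave 20 higher and 1 lower at P5 against adult and 11 higher and 1 lower at P5 against P10.

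**Figure D4:**
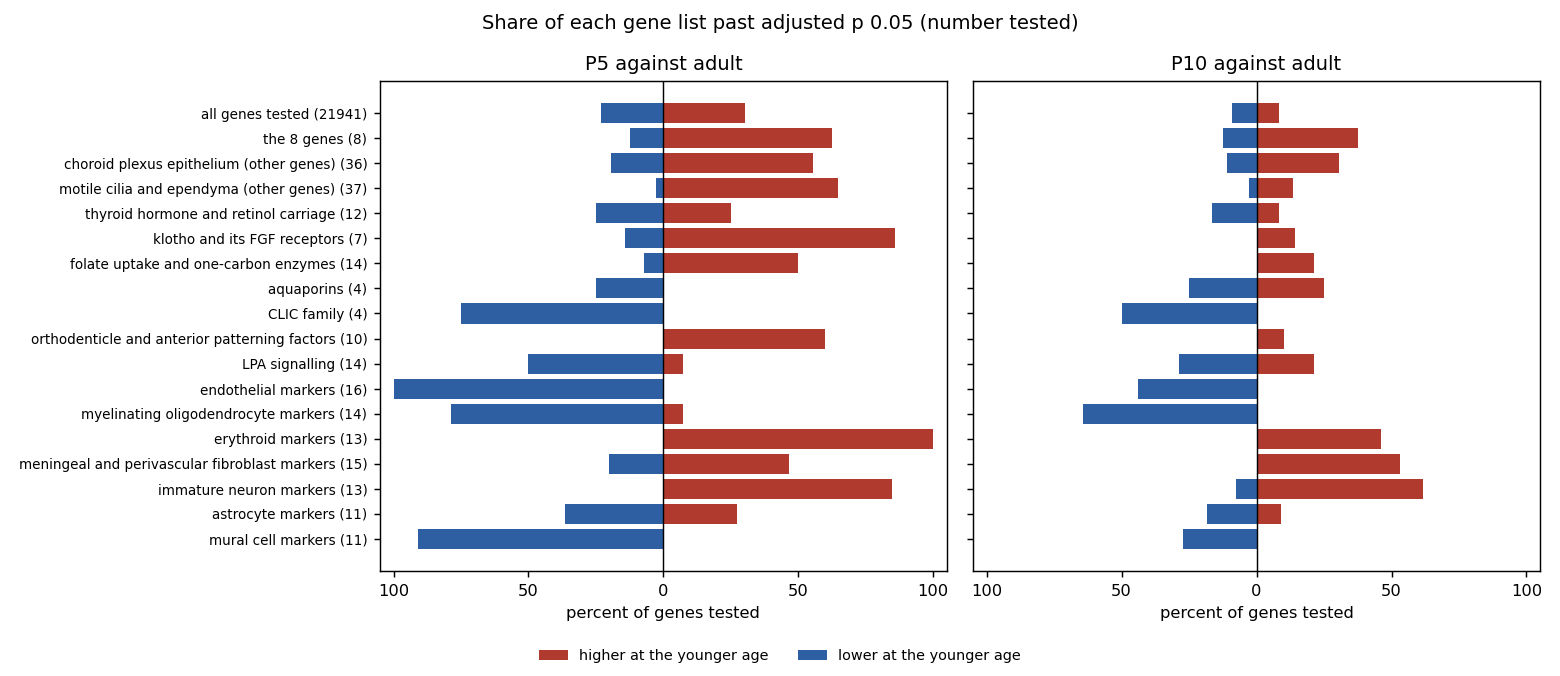
Percent of the tested genes of each list called higher (right) or lower (left) in limma at P5 and at P10 against adult, with the number tested in parentheses and all genes at the top. At P5 the 8 genes, the choroid plexus list and the cilia list have a larger share of higher genes than the 30.1% of all genes, and all endothelial markers are lower. The lists were chosen with earlier results of these data known.

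Ttr's function was followed in 12 further genes of thyroid hormone and retinol carriage. At P5, 3 were higher and 3 lower, with a median of -0.00. These counts were near the shares over all genes, 30.1% higher and 23% lower. Crym, a cytosolic thyroid hormone binder, was higher (1.02), and Rbp4, the retinol carrier that Ttr binds in plasma (-0.98), and the receptor gene Thrb (-0.70) were among the lower ones. At P10 Crym was higher (0.74), and Rbp4 (-0.77) and Thrb (-0.61) were lower. All 3 P10 calls were lost under median centring and without the P10/adult array of replicate 1, where the P5 counts were 1 higher and 2 lower of 11 tested.

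The replicates of the 8 genes differed together. At P10 against adult, replicate 1 was above replicate 2 in 7 of 8 genes, with Otx2 the exception, and the median size of the difference was 0.88, against 0.16 over all genes tested. Ttr had the largest difference (1.97), then Enpp2 (1.01), Clic6 (0.99) and Aqp1 (0.92). At P5 against adult replicate 1 was again above in 7 of 8, Foxj1 being the exception, with a median size of 0.35 against 0.18. Since both ratios of a slide share its adult sample, the 2 sets of differences are not independent. Of the 36 other choroid plexus genes, 31 had replicate 1 above replicate 2 at P10 (median difference 0.46) and 30 at P5 (0.33), while among the 37 cilia genes it was 25 (0.14) and 16 (-0.10). Kcne2 shows the size of this at P10, with 1.23 in replicate 1 and -0.33 in replicate 2, and was named after its values were seen. Over all genes the median difference was 0.02 at P10.

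**Figure D5:**
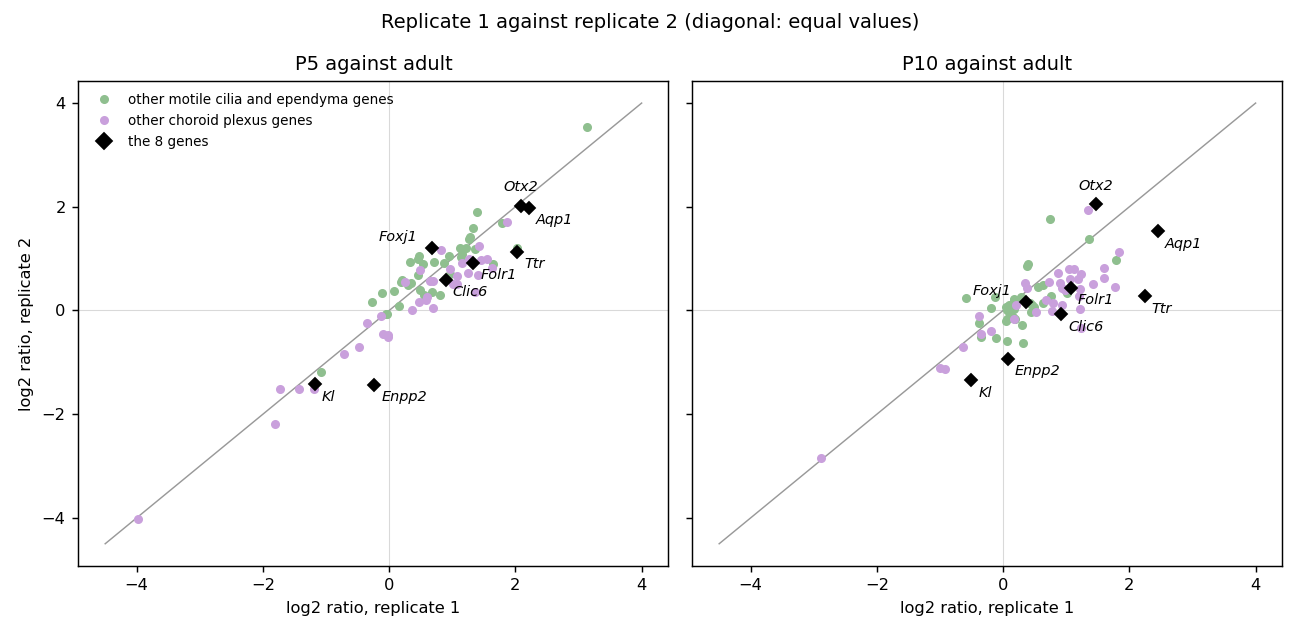
Log2 ratio in replicate 1 (x axis) and replicate 2 (y axis) for the 8 genes (black, named), 36 other choroid plexus genes and 37 other motile cilia and ependyma genes, with the diagonal of equal values. At P10 against adult 7 of the 8 genes and 31 of the 36 choroid plexus genes lie below the diagonal, and Otx2 lies above it.

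Markers of other cells moved with age and, in part, with replicate. Endothelial markers were lower at P5 in 16 of 16 (median -1.70) and at P10 in 7 of 16 (median -0.52), and the sum of their intensities was 142067 and 114661 at P5, 304618 and 273826 at P10, and 736424 and 629768 in adults. Slco1a4 (-4.48) and Ly6c1 (-4.20) had the lowest ratios. Mural markers were lower at P5 in 10 of 11 (median -1.54), with Tagln (-3.37) and Cnn1 (-2.65) lowest, and their sums ran from 27313 to 31625 at P5 and from 123007 to 127803 in adults. The vessel markers were thus lower at the age at which 5 of the 8 genes were higher. The part that the share of vessel RNA had in the ratios of the 8 genes was not tested.

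Immature neuron markers were higher at P5 in 11 of 13 (median 1.77), led by Igfbpl1 (4.40) and Dcx (3.85, with probes down to 0.72), with sums of 31494 to 37369 at P5 and 9414 to 10394 in adults. Erythroid markers were higher in 13 of 13 (median 2.81), led by Hbb-bs (5.70) and Hba-a2 (5.11), with sums of 1980947 to 2302661 at P5 and 198414 to 217029 in adults. Meningeal and perivascular fibroblast markers, which choroid plexus stroma shares in part, were higher in 7 of 15 and lower in 3 at P5, with Col3a1 at 1.94 and Mgp at -2.72, and higher in 8 and lower in none at P10. Median centring gave 4 higher and 4 lower at P5, and 5 were higher at P10 without the P10/adult array of replicate 1. Igf2 is in both this list and the choroid plexus list. Among 14 myelin markers, 11 were lower at P5 and 1 was higher, with Mal at -3.49 and Ermn at 2.88 (-0.38 at another probe). Astrocyte markers were higher in 3 and lower in 4 of 11 at P5, with S100b at -2.02 and Aldh1l1 at 1.44, and median centring gave 1 higher and 6 lower.

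Between replicates, erythroid and myelin markers went the other way from the choroid plexus genes. At P10 against adult replicate 1 was above replicate 2 in none of the 13 erythroid markers (median difference -0.63) and in 1 of the 14 myelin markers (-0.29). It was above in 8 of 16 endothelial markers (-0.01), 7 of 15 fibroblast markers (-0.03) and 5 of 11 mural markers (-0.02). Astrocyte markers had 4 of 11 (-0.20) and immature neuron markers 9 of 13 (0.15). At P5 against adult it was above in 11 of 15 fibroblast markers (0.36) and 10 of 11 mural markers (0.28), much as in the choroid plexus genes. Erythroid, myelin and endothelial markers had 2 of 13 (-0.93), 3 of 14 (-0.27) and 9 of 16 (0.04) at P5. Astrocyte and immature neuron markers had 1 of 11 (-0.24) and 9 of 13 (0.06) at P5. The summed intensity of the 36 other choroid plexus genes was 66230 and 57409 at P5, 78581 and 63168 at P10, and 54375 and 60599 in adults. Replicate 1 was thus above replicate 2 at both young ages and below it in adults. Whether these samples held different amounts of choroid plexus was not tested.

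The 8 genes did not form 1 pattern among themselves. Likeness was measured as the root mean square difference over the 4 ratios per gene (P5 and P10 against adult in both replicates), over 28 pairs. Folr1 and Clic6 were the closest pair (0.38), then Clic6 and Foxj1 (0.44), Folr1 and Foxj1 (0.51), and Aqp1 and Otx2 (0.56). Kl and Enpp2 were closer to each other (0.59) than to any other of the 8, and Kl and Aqp1 were the farthest apart (3.17).

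By the same measure over the 15592 tested genes with a symbol, 3 of the 24 nearest neighbours were in the choroid plexus list of 36 genes, Cldn3, Ecrg4 and Trpm3. Sox4, nearer to Otx2 than Trpm3 was, is in the immature neuron list. Whether the choroid plexus list gave more neighbours than other lists was not tested. Folr1 was nearest to Cldn3, a tight junction gene of this epithelium (0.10), then Acat1 (0.15) and Lbp (0.15). Ttr was nearest to Tex22 (0.14), Ecrg4 (0.36) and Sulf1 (0.51), and Otx2 to Cpxm1 (0.16), Sox4 (0.18) and Trpm3 (0.21). The neighbours of Aqp1 were Kifc1 (0.20), Pxdn (0.21) and Prnd (0.21), those of Clic6 included Emb (0.13) and Marco (0.18), and those of Foxj1 were Igsf21, Ank2 and Tspan33 (0.09 each). Kl was nearest to Ifit2 (0.11), Perp (0.12) and H2-Ab1 (0.15), and Enpp2 to Clec1b (0.24), Xirp1 (0.26) and H2-DMb1 (0.31), at larger distances than the first neighbours of the other 7 genes. With 4 values per gene, such neighbours are a description of these slides.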

How the data were processed

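Per the labels' protocols, 100 ng of total RNA went into each Cy5 or Cy3 labelling. The authors deposited each array's scanner table from Agilent Feature Extraction, and per the file headers its median spot and background signals are linear intensity values. The headers give version 10.5.1.1, and the submitters' processing notes 12.6.

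Each array was background-corrected (normexp, offset 50) and normalized by loess (span 0.3) in limma 3.58.1 under R 4.3.3. The 11 spots on 2 arrays whose signal lay more than 100 below their local background were given the array's median background and then left out. Outlier spots were left out. A probe was kept where all channels of 1 age or more were well above background (27190 of 39429), and the brightest kept probe stood for a gene (21941 genes, 15592 with a symbol). Symbols came from RefSeq through the probes' accessions. Gene coordinates are not given, since the headers name build mm9. The 4 ratios of a slide were fitted with P5-adult, P10-adult and a dye term, and limma then fitted age and replicate (2 residual and 2.91 prior degrees of freedom). A replicate is a slide that holds the 3 ages, so each replicate's value is a within-batch value, and the shared slide is what pairs the samples. Levels are single-channel values after loess and Aquantile scaling. Summed levels add the brightest probe of each gene in a list, averaged over the channels of an age and replicate. The script was tested on simulated data.

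The 8 genes and the gene lists were chosen with earlier results of these data known. Named genes are the 8 genes, the called genes with the largest ratios of each pathway list at P5 and P10 (at most 4, or 4 in each direction for the choroid plexus and cilia lists), the 2 with the largest ratios of each marker list at P5, and the 3 nearest neighbours; a few genes that this rule names are not reported here. Figures were drawn with matplotlib.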

Additional observations from a re-analysis of the deposited data

How the results depend on the processing

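The 8 genes gave 24 log2 ratios, each recomputed under 14 alternatives with a test: 294 of 336 kept direction and side of the threshold, 28 lost their call, 7 gained one and 7 turned sign. All 7 belong to P5 against P10, where the main values were not called: under median centring Ttr (-0.47), Folr1 (-0.34), Aqp1 (-0.52), Clic6 (-0.32) and Otx2 (-0.25), Aqp1 with normexp on every spot (-0.089), and Aqp1 without the 2 arrays that hold spots of faulty background (-0.0021). Median centring moved the median of all genes from 0.09 to -0.07 at P5 against adult and from 0.06 to -0.12 at P5 against P10, and the share of calls that were higher from 56.6% to 46.6% and from 55.8% to 39.9%.

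Members called at P10 against adult, 4 in the main analysis, were 1 with normexp on every spot and 2 each with processed signals, median centring, no filter on dim probes, without the 2 arrays of faulty background, and without the P10/adult array of replicate 1 (an alternative chosen after seeing the data). At P5 against P10, the 1 member called became 0 with normexp on every spot, processed signals, no filter on dim probes and without the 2 arrays of faulty background. Under median centring the 1 was Enpp2, lower at P5, and with the directly paired arrays it was Ttr.

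Genes called with normexp on every spot were 5379 at P5 against adult, 253 at P10 against adult and 0 in limma at P5 against P10 (7065 at an unadjusted p below 0.05). The other counts beyond 1.5 times of the main ones (11647, 3843 and 9034) were, at P10 against adult, 1279 with median centring, 1878 without the 2 arrays of faulty background and 1335 without the P10/adult array of replicate 1, and at P5 against P10, 4448 with the directly paired arrays and 5569 and 5764 without those arrays. With no replicate block, 14673, 6960 and 12703 genes were called, and 7, 4 and 1 of the 8 genes. In all 64 of 84 counts stayed within 1.5 times.

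With 1 replicate left out there is no test, and each ratio is the other replicate's value. Kl at P10 against adult then ran from -1.35 to -0.51, Clic6 from -0.08 to 0.91 and Enpp2 from -0.94 to 0.07.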
